A study of Homo sapiens with 30 samples.

Results

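The genes described are 45 genes of DNA replication and mitosis, of 27348 genes counted in both replicates of the study. They were chosen by name for their known roles and not by a measured value, though with earlier results of these data known. There are 21 replication genes, 8 E2F genes and G1/S cyclins, and 16 mitotic genes. Their transcripts were counted by RNA sequencing in RUES2, an established line of human embryonic stem cells, grown in E7 medium with a ROCK inhibitor in every group. The study asked how these cells respond to the differentiation signals Wnt3a and Activin A when BET proteins, readers of acetylated chromatin, are blocked by CPI-203. All 16 RNA libraries come from this line, in 8 groups of 2. At 48 h, WNT_CPI_ACT cells had Wnt3a with CPI-203 on day 1 and then Activin A, WNT_ACT cells had Wnt3a and then Activin A, WNT_E7 cells had Wnt3a and then medium alone, and E7_ACT cells had medium and then Activin A. At 24 h, WNT_CPI cells had Wnt3a with CPI-203, WNT cells had Wnt3a, E7_CPI cells had CPI-203 in medium, and E7 cells had medium alone. Wnt3a was used at 100 ng/mL, CPI-203 at 1 µM and Activin A at 10 ng/mL. Since no label says that the 2 replicates of a group came from different cultures, a p-value here speaks of the variation among the sequenced libraries, which may be technical. The main fit leaves out the pairing of libraries by replicate number described below, so this variation includes the difference between replicates.

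Cells copy their DNA once per division. The origin recognition complex, CDC6 and CDT1 load the MCM helicase onto origins in G1, and GINS joins the helicase when origins fire in S phase, when polymerases, the PCNA clamp and the enzymes that make deoxynucleotides are needed. Cyclin E frees the activator E2F factors from the RB protein, E2Fs switch on replication genes, and the atypical repressors E2F7 and E2F8 switch them off again. Mitotic genes peak later, in G2 and M phase, and many carry a CHR element through which the DREAM and MuvB complexes act. Human embryonic stem cells are known for a short G1 phase and a high share of cells in S phase.

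The promoters show how the members divide by class. RefSeq promoter windows (GRCh38.p14), 250 bases before to 50 after a gene's start, matched 39 of the 45 members. MCM4, GINS4, CCNE2, E2F8, AURKA and UBE2C were not matched. An E2F site (TTTCCCGC, TTTCGCGC, TTTGCCGC or TTTGGCGC, either strand) was found in 13 of 19 replication promoters (68.4%), 3 of 6 of E2F genes and cyclins (50%) and 1 of 14 mitotic promoters (7.14%, CDK1), against 4.97% of the 13398 tested genes that have a window. A CHR element (TTTGAA or TTCGAA, either strand) was found in 2 replication promoters (10.5%), 1 of E2F genes and cyclins (16.7%) and 10 mitotic promoters (71.4%), against 11.9% of those genes. The CCAAT box (CCAAT, either strand) was found in 76.9% of the member windows, against 36.1%. No searched motif contains another, but on opposite strands matches of the E2F site can overlap. A match says only that the letters are there.

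**Figure D1:**
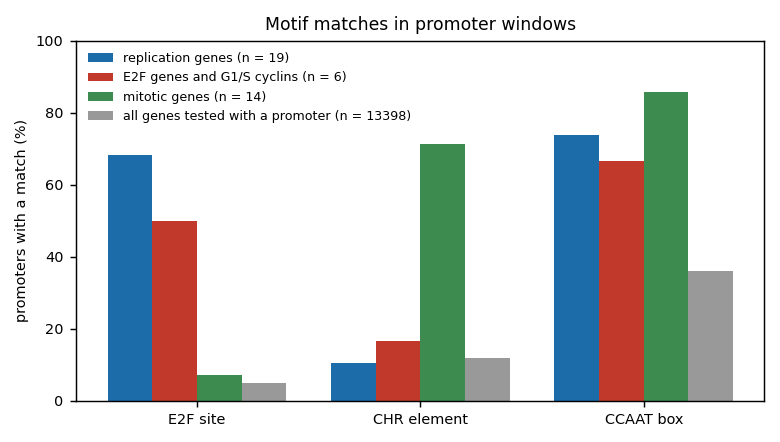
Share of promoter windows (y axis, percent) with at least 1 match of each motif (x axis), as bars for each member class and, in grey, for all tested genes with a window. Replication promoters lead for the E2F site (68.4%) and mitotic promoters for the CHR element (71.4%).

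The upstream bases of 4 members named in the results below are shown 5′ to 3′ on the gene's own strand. Members called higher in both 24 h comparisons are not among them. Matches are in capitals: E2F sites in E2F2, MCM6 and TYMS, CCAAT boxes (as ATTGG, on the other strand) and a CHR element in MCM6, and a CHR element in BUB1B. They lie at chr1:23531234-23531483 (minus strand) for E2F2, chr2:135876444-135876693 (minus strand) for MCM6, chr18:657403-657652 (plus strand) for TYMS and chr15:40160819-40161068 (plus strand) for BUB1B.
E2F2: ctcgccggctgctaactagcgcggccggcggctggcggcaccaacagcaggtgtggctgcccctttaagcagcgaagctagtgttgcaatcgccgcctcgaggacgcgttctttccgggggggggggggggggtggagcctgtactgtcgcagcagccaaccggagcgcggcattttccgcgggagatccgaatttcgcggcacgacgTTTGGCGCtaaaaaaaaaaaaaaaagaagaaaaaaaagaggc
MCM6: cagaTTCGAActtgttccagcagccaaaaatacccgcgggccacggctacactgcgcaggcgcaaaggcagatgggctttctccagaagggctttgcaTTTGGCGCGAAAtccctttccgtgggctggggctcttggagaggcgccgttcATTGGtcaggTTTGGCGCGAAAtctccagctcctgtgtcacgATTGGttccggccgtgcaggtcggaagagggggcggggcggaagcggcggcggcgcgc
TYMS: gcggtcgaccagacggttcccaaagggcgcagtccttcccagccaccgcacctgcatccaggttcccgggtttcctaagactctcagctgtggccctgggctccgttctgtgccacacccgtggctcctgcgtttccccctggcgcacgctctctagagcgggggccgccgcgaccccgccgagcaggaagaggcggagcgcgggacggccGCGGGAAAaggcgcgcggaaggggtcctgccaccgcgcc
BUB1B: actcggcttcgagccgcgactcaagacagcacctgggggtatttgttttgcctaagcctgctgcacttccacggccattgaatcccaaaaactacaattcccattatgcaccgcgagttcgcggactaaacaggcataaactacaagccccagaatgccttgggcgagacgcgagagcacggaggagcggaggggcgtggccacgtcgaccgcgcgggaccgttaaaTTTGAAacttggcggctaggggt
The E2F2 match starts 42 bases before the gene's start and that of TYMS 39 bases before it. MCM6 holds 4 E2F matches, read as TTTGGCGC and GCGCGAAA, which overlap by pairs. In BUB1B the CHR element starts 23 bases before the start.

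Library totals ran from 36268324 counts (WNT replicate 2) to 43347733 (WNT_CPI replicate 2), and all 45 members passed the filter on low counts, among 17355 genes tested. The E7_CPI replicate 1 library stands apart. Its values as deposited matched no other library (highest absolute Spearman correlation 0.0071). Placed in the row order of the other replicate's table they did (0.954 to 0.986), and they are used so here. Of 246 genes that differed by over 1 log2 unit between replicates, the same way in the 7 other groups, this library lay nearer the replicate 2 level of WNT_CPI at 244. Counts of the E7_CPI pair also differed less than those of any other pair (median chi-square per gene 1.06, against 12.8 to 25.8), though by more than counting alone gives (0.455). Member calls and list counts in E7_CPI are therefore given with and without that library. Of 6 stem cell markers, POU5F1, SOX2, LIN28A, DPPA4 and L1TD1 had over 100 CPM in all 16 libraries, while NANOG had 0.809 to 1.31 CPM in the 24 h groups given CPI-203 and at least 71.6 CPM elsewhere. Of 6 fibroblast or feeder markers, COL1A1 (41.9 to 312 CPM) and COL1A2 (60.3 to 199 CPM) were abundant, POSTN had up to 5.65 CPM, and COL3A1, LUM and DCN had 32, 3 and 0 counts in all. Of 626 genes assigned to chromosome 22, 625 had no count, so replication genes placed there, such as MCM5 and CDC45, were not analysed here.

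The 3 genes used as a check of the response, HEXIM1, SERPINI1 and H2BC5, were called higher after CPI-203 in both 24 h comparisons. These genes too were chosen with earlier results of these data known. HEXIM1, an inhibitor of P-TEFb that rises under BET inhibition, had 277 and 282 CPM (the count relative to the scaled total of its library) in E7_CPI, against 73.2 and 87.5 CPM in E7, with a log2 fold change of 1.80 ± 0.15 (SE; edgeR adjusted p = 2.23e-05). With Wnt3a it stood at 295 and 309 CPM in WNT_CPI and at 69.8 and 85.3 CPM in WNT. At 48 h the HEXIM1 log2 fold change of WNT_CPI_ACT over WNT_ACT was 0.19 ± 0.15, and its adjusted p was 0.599. H2BC5, a histone gene, was still higher then, with 15.85 and 13.0 CPM in WNT_CPI_ACT against 4.25 and 3.08 CPM in WNT_ACT (1.97 ± 0.20, adjusted p = 0.000765). SERPINI1 had 6.57 and 5.64 CPM in WNT_CPI_ACT against 7.38 and 5.88 CPM in WNT_ACT.

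At 24 h CPI-203 lowered E2F2 and E2F8 more than any other member, lowered subunits of the MCM and GINS helicase assembly, and raised RRM2, GINS4 and POLE. In E7_CPI against E7, edgeR's quasi-likelihood test called 14 of the 45 members (31.1%) at an adjusted p under 0.05, 4 higher and 10 lower, where 32.7% of all tested genes were called. In WNT_CPI against WNT it also called 14 members, 5 higher and 9 lower, where 31% of all genes were called. Both shares are near the background, so the count does not set the members apart. Of each set of 14, 11 were called in both and in the same direction: MCM2, MCM6, GINS1, GINS2, CCNE1, E2F2, E2F3 and E2F8 were lower, and GINS4, POLE and RRM2 higher. The share of all genes called in both was not counted, so this overlap does not set the members apart. These comparisons share no library, but their spread was estimated together in the same fit. The median log2 fold change of the members was -0.24 in E7_CPI against E7 (all genes -0.052) and -0.025 in WNT_CPI against WNT (all genes -0.011). The sign of the members' median in WNT_CPI turns with DESeq2 size factors (0.0050). With the replicate number as a block and without E7_CPI replicate 1, the members' median in E7_CPI was -0.121. That of the mitotic genes was then -0.109, against -0.255 in the main fit. In bulk RNA, fewer cells of a type (here, of a cell cycle phase) and less RNA per cell cannot be told apart.

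**Figure D2:**
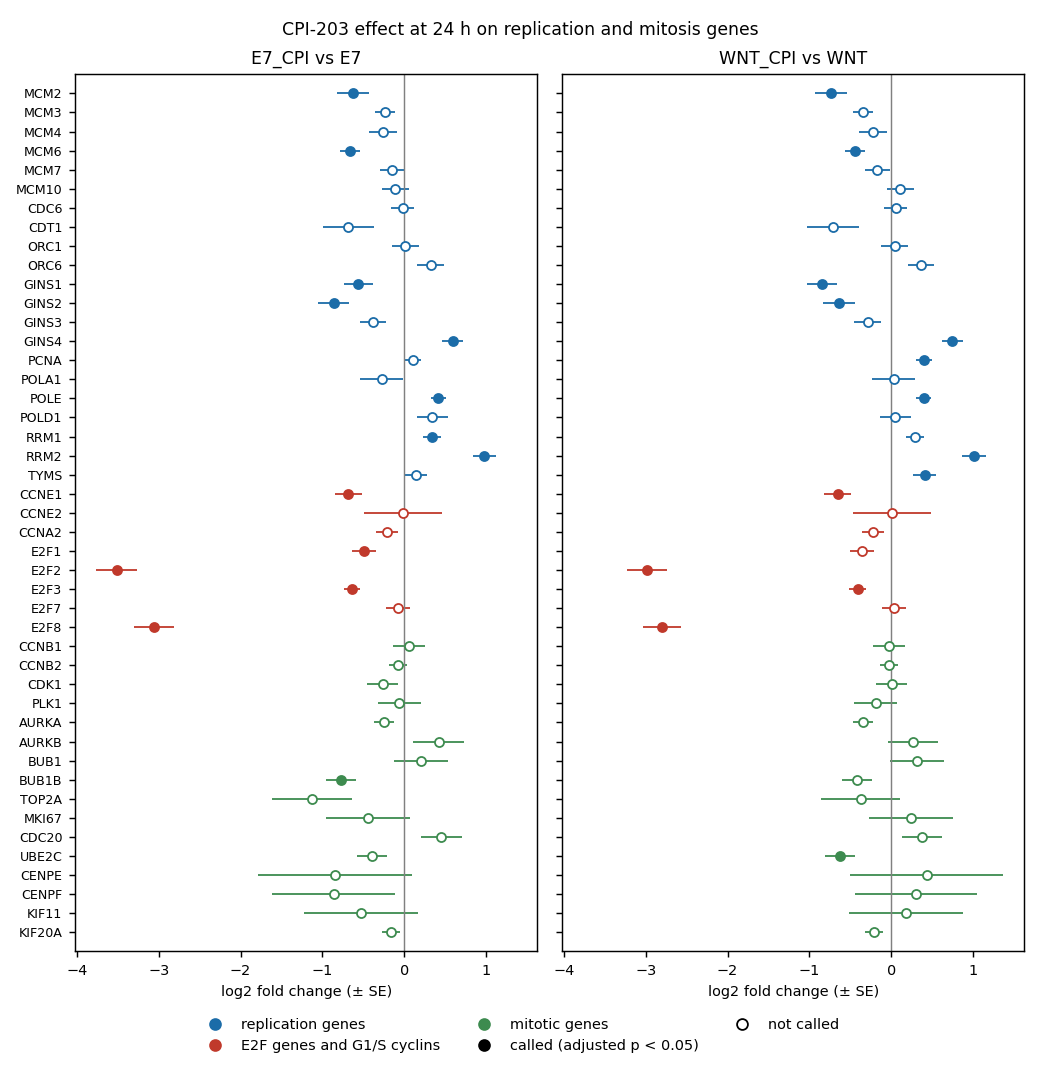
Log2 fold change (x axis, ± SE) of each of the 45 members (y axis) at 24 h, for E7_CPI against E7 on the left and WNT_CPI against WNT on the right. Colour gives the class, and filled points were called. E2F2 and E2F8 lie far to the left of the other members in both panels (-3.52 and -3.06 on the left, -2.99 and -2.80 on the right).

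The 14 calls in E7_CPI against E7 rest in part on the library that stands apart. Without it, 8 of 45 members were called (17.8%), against 17.5% of all genes: E2F2, E2F8, GINS2, CCNE1, MCM6, E2F3, RRM2 and GINS4. With the replicate number as a block and still without that library, 23 were called (51.1%), 5 higher and 18 lower, against 44% of all genes, and the other 6 of the 14 were among them. The replicate numbers pair the libraries of the other 7 groups, as described under the mitotic genes below. In the fit without the block and without that library, only replicate 2 of E7_CPI is set against both E7 replicates. The block in WNT_CPI against WNT gave 22 members (48.9%), 8 higher and 14 lower, against 47.4% of all genes. This fit enters E7_CPI replicate 1 as a replicate 1 library, although it lay nearer the replicate 2 level. The same holds for every block result, here and below, that does not leave this library out. Member counts with the block and without it, given in the last section, were no lower in any comparison. With any of the compared libraries left out, fewer members and also fewer of all genes were called in both comparisons. The last section gives the ranges of both. In E7_CPI against E7, MCM6, RRM2, E2F2, E2F3 and E2F8 were called with each of the 4 libraries left out. In WNT_CPI against WNT, GINS4, PCNA, RRM2, E2F2 and E2F8 were called each time.

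The E2F genes and G1/S cyclins were the class with the largest changes. Of the 8, 5 were called lower in E7_CPI (E2F2, E2F8, CCNE1, E2F3 and E2F1) and 4 in WNT_CPI (E2F2, E2F8, CCNE1 and E2F3), and none was called higher at 24 h. Of all genes, 17.6% were called lower in E7_CPI and 17.9% in WNT_CPI. E2F2, an activator E2F, had 0.631 and 0.753 CPM in E7_CPI (23 and 27 counts), against 7.63 and 8.26 CPM in E7 (320 and 346 counts). That is 11.4-fold lower (log2 fold change -3.52 ± 0.25, edgeR adjusted p = 9.08e-06, and 0.000452 without E7_CPI replicate 1). Every E7_CPI library lay far below every E7 library. With Wnt3a, E2F2 had 1.03 and 0.998 CPM in WNT_CPI, against 7.38 and 8.76 CPM in WNT, 7.94-fold lower (-2.99 ± 0.24, adjusted p = 1.5e-05).

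E2F8, an atypical E2F that represses replication genes, followed the same course at a higher count. It had 2.17 and 2.26 CPM in E7_CPI (79 and 81 counts), against 20.2 and 16.7 CPM in E7 (846 and 700 counts). The E2F8 log2 fold change was -3.06 ± 0.24, or 8.32-fold lower (edgeR adjusted p = 1.47e-05, and 0.000692 without E7_CPI replicate 1). In WNT_CPI it had 3.21 and 3.60 CPM, against 26.3 and 21.2 CPM in WNT, 6.97-fold lower (-2.80 ± 0.24, adjusted p = 1.9e-05). For both genes the groups are separated by several times the distance between replicates. E2F7, the other atypical E2F, had 48.2 and 52.3 CPM in E7_CPI against 58.0 and 48.2 CPM in E7, and 71.6 and 63.9 CPM in WNT_CPI against 71.4 and 61.3 CPM in WNT. Its groups overlap.

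CCNE1, the cyclin E that starts S phase with CDK2, had 45.9 and 41.2 CPM in E7_CPI, against 66.5 and 73.6 CPM in E7 (log2 fold change -0.68 ± 0.17, edgeR adjusted p = 0.00953, and 0.0415 without E7_CPI replicate 1). In WNT_CPI CCNE1 had 42.98 and 52.4 CPM, against 71.2 and 78.6 CPM in WNT (-0.65 ± 0.17, adjusted p = 0.0126). All libraries given CPI-203 were below all without it, although leaving out WNT replicate 2 or WNT_CPI replicate 1 took the WNT_CPI adjusted p to 0.0789 and 0.104, and leaving out E7 replicate 2 or E7_CPI replicate 2 took that of E7_CPI to 0.0609 and 0.0868. E2F3, another activator, had 60.5 and 59.6 CPM in E7_CPI, against 97.9 and 89.2 CPM in E7 (-0.64 ± 0.10, adjusted p = 0.000954, and 0.0133 without E7_CPI replicate 1). E2F1 had 29.1 and 29.7 CPM in E7_CPI, against 45.4 and 37.5 CPM in E7, also without overlap (-0.49 ± 0.14, adjusted p = 0.0242, and 0.105 to 0.185 without E7 replicate 1 or either E7_CPI replicate). The E2F3 call in WNT_CPI was lost with each of the WNT and WNT_CPI libraries left out (0.0501 to 0.0573). CCNE2, which shares positions with INTS8 and NDUFAF6, had only 2.95 to 7.05 CPM over all libraries and differed by -0.014 on the log2 scale in E7_CPI.

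The helicase genes did not all move in 1 direction, as given for GINS4 below. Of the MCM2-7 ring, MCM2 and MCM6 were called lower in both comparisons. MCM6 had 195 and 187 CPM in E7_CPI, against 287 and 318 CPM in E7 (log2 fold change -0.67 ± 0.12, edgeR adjusted p = 0.00226, and 0.021 without E7_CPI replicate 1), and 214 and 254 CPM in WNT_CPI, against 295 and 339 CPM in WNT (-0.44 ± 0.12, adjusted p = 0.0204). MCM2 had 207 and 193 CPM in E7_CPI, against 271 and 346 CPM in E7 (log2 fold change -0.62 ± 0.20, adjusted p = 0.0329, and 0.11 without E7_CPI replicate 1). In WNT_CPI it had 186 and 225 CPM, against 298 and 388 CPM in WNT (-0.74 ± 0.20, adjusted p = 0.0161). The groups do not overlap for either gene. In WNT_CPI, both calls were lost without WNT replicate 2 or WNT_CPI replicate 1 (adjusted p of 0.117 to 0.155), and MCM2 in E7_CPI was also lost without E7 replicate 2 (0.202) or E7_CPI replicate 2 (0.169). MCM3, MCM4 and MCM7 were not called in either comparison, with log2 fold changes that were also below 0 (-0.34 to -0.15). Whether they differed from MCM2 and MCM6 was not tested. MCM3 was called lower in both with the replicate block, and so was the loader CDT1 (adjusted p = 8.35e-05 in E7_CPI without its replicate 1, and 0.00164 in WNT_CPI).

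GINS, which joins the MCM ring to form the active helicase, split by subunit. GINS2 had 40.3 and 39.8 CPM in E7_CPI, against 66.3 and 79.4 CPM in E7 (log2 fold change -0.86 ± 0.19, edgeR adjusted p = 0.00636, and 0.0479 without E7_CPI replicate 1). GINS1 had 64.1 and 78.5 CPM in WNT_CPI, against 116 and 140 CPM in WNT (-0.85 ± 0.18, adjusted p = 0.00486). GINS4 ran the other way, with 104 and 112 CPM in E7_CPI, against 74.3 and 68.4 CPM in E7 (0.59 ± 0.13, adjusted p = 0.00538, and 0.0259 without E7_CPI replicate 1). In WNT_CPI GINS4 had 110 and 117 CPM, against 68.5 and 66.9 CPM in WNT (0.75 ± 0.13, adjusted p = 0.00153). All 4 libraries given CPI-203 were above all 4 without it for GINS4 and below them for GINS1 and GINS2. The GINS2 call in E7_CPI was lost without E7 replicate 2 (0.0501) or E7_CPI replicate 2 (0.0504), that of GINS1 in WNT_CPI without WNT_CPI replicate 1 (0.0503), and that of GINS4 in E7_CPI without E7_CPI replicate 2 (0.0502). GINS1 in E7_CPI was lost with each of the 4 libraries left out (0.0702 to 0.179), and GINS2 in WNT_CPI without WNT replicate 2 (0.187) or WNT_CPI replicate 1 (0.194). GINS3 was not called, at -0.38 and -0.29 on the log2 scale. GINS2 overlaps GSE1 on the opposite strand, and the counting is not stated to use strand, so reads of such pairs cannot be told apart.

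Of the enzymes that make deoxynucleotides, RRM2 was called higher in both comparisons, RRM1 in E7_CPI and TYMS in WNT_CPI. RRM2, the regulated subunit of ribonucleotide reductase, had 492 and 486 CPM in E7_CPI, against 239 and 258 CPM in E7, which is 1.97-fold higher (log2 fold change 0.98 ± 0.14, edgeR adjusted p = 0.000525, and 0.00654 without E7_CPI replicate 1). In WNT_CPI it had 527 and 620.3 CPM, against 276 and 293 CPM in WNT, 2.02-fold higher (1.01 ± 0.14, adjusted p = 0.000413). RRM1, the other subunit, had 250.3 and 243 CPM in E7_CPI, against 185 and 205 CPM in E7 (0.34 ± 0.11, adjusted p = 0.0369, and 0.171 without E7_CPI replicate 1), a call also lost without any of the other 3 libraries (0.0576 to 0.221). In WNT_CPI it had 253.5 and 301 CPM, against 218 and 235 CPM in WNT, also without overlap (0.29 ± 0.11, adjusted p = 0.0715, and 0.0209 with the replicate block). DESeq2 called RRM1 there (adjusted p = 0.0342). RRM2 has pseudogene copies (RRM2P2 among them), and how the counting treated such copies is not given in the sources used here.

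Among polymerase genes, POLE, the catalytic subunit of the leading strand polymerase, had 236 and 233 CPM in E7_CPI, against 182 and 169 CPM in E7 (log2 fold change 0.42 ± 0.094, edgeR adjusted p = 0.00655, and 0.0529 without E7_CPI replicate 1). In WNT_CPI it had 249 and 248 CPM, against 189 and 188 CPM in WNT (0.40 ± 0.094, adjusted p = 0.00878). POLE was not called in E7_CPI without E7 replicate 2 (0.0545), nor in WNT_CPI without WNT replicate 2 (0.0557). PCNA, the sliding clamp, had 412.5 and 421 CPM in WNT_CPI, against 315 and 316 CPM in WNT (0.40 ± 0.093, adjusted p = 0.00801). In E7_CPI PCNA had 317 and 320.4 CPM, against 297 and 295 CPM in E7, and was not called. TYMS, the thymidylate synthase, had 56.4 and 54.9 CPM in WNT_CPI, against 43.6 and 40.1 CPM in WNT (0.41 ± 0.14, adjusted p = 0.0466), and lost this call with any of these 4 libraries left out (adjusted p of 0.0994 to 0.21) and without E7_CPI replicate 1 (0.0706). Promoters with an E2F match stand on both sides: MCM2, MCM6, GINS1, GINS2, E2F1, E2F2 and E2F3 among members called lower, and POLE, PCNA and TYMS among those called higher.

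**Figure D3:**
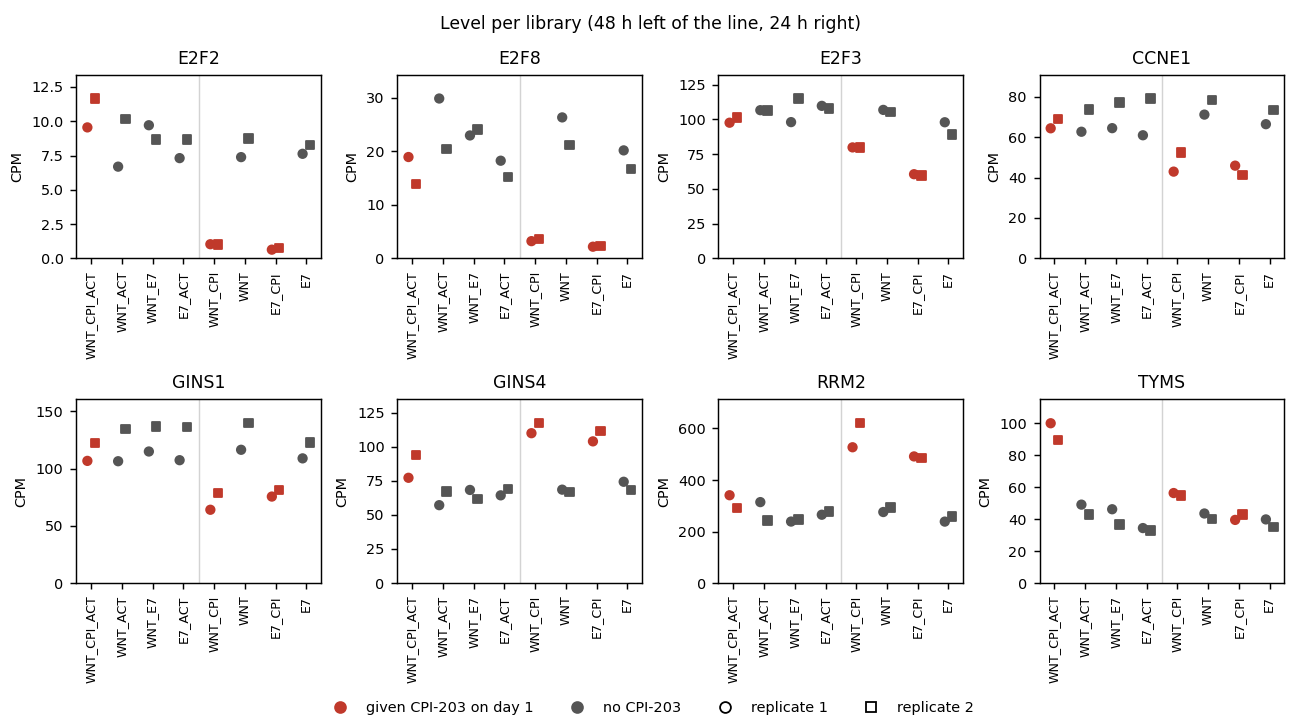
CPM (y axis, from 0) of 8 members in every library, by group (x axis). Red marks groups given CPI-203 on day 1 and grey the others, circles replicate 1 and squares replicate 2, with the 48 h groups left of the line and the 24 h groups right of it. E2F2 and E2F8 are near the floor in WNT_CPI and E7_CPI alone, RRM2 is highest there, and TYMS is highest in WNT_CPI_ACT.

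Of the 16 mitotic genes, 1 was called in each 24 h comparison (6.25%), BUB1B in E7_CPI and UBE2C in WNT_CPI, where 32.7% and 31% of all genes were called. Under the replicate block 4 were called in WNT_CPI (25%), against 47.4% of all genes. With the block and without E7_CPI replicate 1, 5 were called in E7_CPI (31.2%), against 44% of all genes, and 8 in WNT_CPI (50%), against 52.9%. BUB1B, the spindle checkpoint kinase BUBR1, had 157 and 168 CPM in E7_CPI, against 290.5 and 265 CPM in E7 (log2 fold change -0.77 ± 0.18, edgeR adjusted p = 0.00777). It was not called without E7_CPI replicate 1 (0.0644) or E7 replicate 1 (0.0501), and was called without it once the replicates were blocked (0.00262). In WNT_CPI BUB1B had 195.5 and 175 CPM, against 266 and 229 CPM in WNT (-0.42 ± 0.18, adjusted p = 0.103). UBE2C, the ubiquitin-conjugating enzyme of the anaphase-promoting complex, had 79.1 and 101 CPM in WNT_CPI, against 117 and 162 CPM in WNT (-0.63 ± 0.18, adjusted p = 0.0244), a call lost without WNT replicate 2 (0.216) or WNT_CPI replicate 1 (0.172). For the cyclins CCNB1 and CCNB2 and the kinases CDK1 and PLK1, log2 fold changes lay between -0.26 and 0.058 over both comparisons.

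The mitotic genes were also where the replicates differed most. CENPE, a kinetochore motor, had 337 and 88.6 CPM in WNT_ACT and 152 and 58.6 CPM in E7, replicate 1 first. Over the 7 groups other than E7_CPI, CENPE was 1.79- to 4.30-fold higher in replicate 1, CENPF 1.78- to 2.94-fold, KIF11 1.57- to 3.10-fold, MKI67 1.55- to 1.99-fold and TOP2A 1.37- to 2.00-fold. AURKB, PLK1, CDC20 and the loader CDT1 were lower in replicate 1 in all 7, AURKB at 0.631 to 0.772 of the replicate 2 level. In all, 10 of the 45 members were higher in replicate 1 in each of these 7 groups and 11 were lower in each, 12 of these 21 being mitotic. The share of all genes with such a pattern was not counted, so these counts do not set the members apart. In E7_CPI the same genes hardly differed (CENPE 59.9 and 56.9 CPM), and the largest difference of any member was 0.24 on the log2 scale. SEs of these genes in the fit without the block were accordingly wide, up to 0.94 for CENPE. TOP2A had 311 and 280 CPM in E7_CPI, against 748 and 546 CPM in E7, with an adjusted p of 0.103, and of 0.00147 with the block and without E7_CPI replicate 1. The cause of the replicate difference was not tested.

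**Figure D4:**
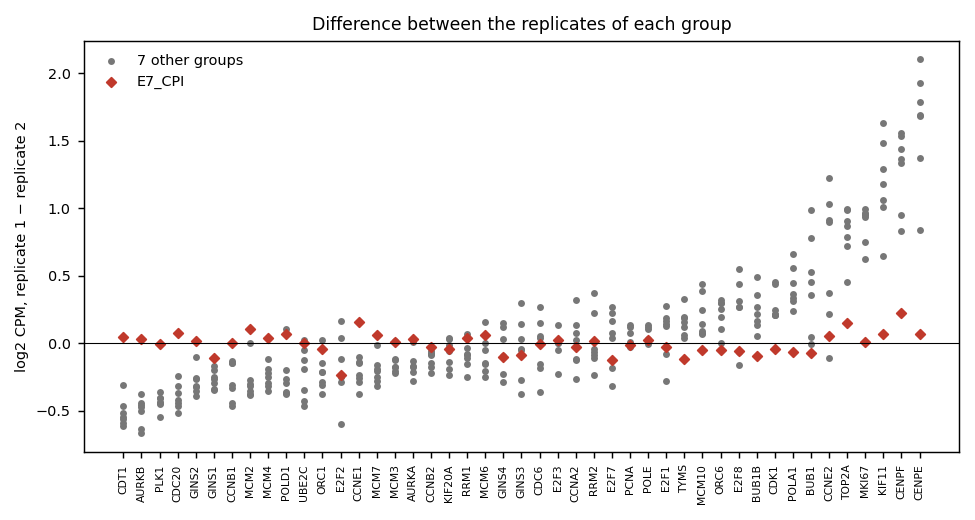
Difference in log2 CPM between replicate 1 and replicate 2 (y axis) for each member (x axis, ordered by the mean), with a grey point for each of the 7 other groups and a red diamond for E7_CPI. CENPE, CENPF and KIF11 stand highest and CDT1, AURKB and PLK1 lowest, while the E7_CPI diamonds stay within 0.24 of 0.

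Cell identity markers moved with the same treatment. The summed level of 6 pluripotency markers was 3348 to 3409 CPM in E7_CPI against 5573 to 5948 CPM in E7, and 2687 to 2977 CPM in WNT_CPI against 5655 to 5988 CPM in WNT. In E7_CPI, 3 of the 6 were called lower and none higher, with and without its replicate 1, and in WNT_CPI 4 were called lower. NANOG had 0.933 and 0.809 CPM in E7_CPI against 71.6 and 112 CPM in E7, and DPPA4 239.5 and 259.7 CPM in E7_CPI against 1057 and 1067 CPM in E7. The summed level of 6 neural markers was 1325 to 1411 CPM in E7_CPI against 192 to 282 CPM in E7, and 1399 to 1612 CPM in WNT_CPI against 341 to 507 CPM in WNT, with 3 called higher (TUBB3, STMN2 and MAP2) and 1 lower (DCX) in each comparison, in E7_CPI also without its replicate 1. The summed fibroblast or feeder markers had 367 to 373 CPM in E7_CPI against 275 to 354 CPM in E7, and 229 to 279 CPM in WNT_CPI against 208 to 361 CPM in WNT, with COL1A2 and POSTN called lower in each, and 1 of these in E7_CPI without its replicate 1. PAX6 stayed under 0.39 CPM in every library. The part of these shifts in the members' changes was not tested.

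Genes of the same pathways outside the 45 were counted beside the 32.7% and 31% of all genes called in E7_CPI and WNT_CPI. These shares are of the main fit only. In E7_CPI the share was lower without its replicate 1, and in both comparisons it was higher with the block. Counts of those fits belong beside their own shares, which are given with the members above. Of 48 other replication genes tested, 4 were called higher and 9 lower in E7_CPI, and 4 and 5 in WNT_CPI. Without E7_CPI replicate 1 the E7_CPI counts were 2 higher and 4 lower. In WNT_CPI the block gave 6 higher and 13 lower, where 47.4% of all genes were called. POLE2, the second subunit of the leading strand polymerase, had 9.71 and 11.2 CPM in E7_CPI, against 38.9 and 37.4 CPM in E7 (log2 fold change -1.86 ± 0.19, edgeR adjusted p = 6.41e-05), while POLE4, another subunit, had 31.8 and 30.6 CPM in E7_CPI, against 12.5 and 16.9 CPM in E7 (1.09 ± 0.21, adjusted p = 0.00269). TIPIN, of the fork protection complex, was lower by 1.37 in E7_CPI and 1.06 in WNT_CPI on the log2 scale. Of 20 other E2F, RB, DREAM and G1/S genes, 7 were called lower and none higher in each comparison, and 3 lower in E7_CPI without its replicate 1. With the block, 2 were called higher and 10 lower in WNT_CPI. RBBP4, a histone-binding subunit of MuvB, had 71.7 and 71.9 CPM in E7_CPI, against 186.5 and 203 CPM in E7 (-1.44 ± 0.094). Of 58 other mitotic genes, 3 were called higher and 5 lower in E7_CPI, and 2 and 3 in WNT_CPI, with 1 lower and none higher in E7_CPI without its replicate 1. With the block, WNT_CPI had 9 higher and 8 lower, and 13 and 10 once E7_CPI replicate 1 was also left out. With the block and without that library, E7_CPI had 6 higher and 16 lower of the 48, 2 and 10 of the 20, and 7 and 9 of the 58.

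Whether Wnt3a altered the CPI-203 effect was tested as an interaction at 24 h. By edgeR it was called for 0 of the 45 members, against 0.0115% of all genes, with 1 member at an unadjusted p under 0.05 and 0 by DESeq2. That member was PCNA, whose log2 fold change was larger with Wnt3a by 0.30 ± 0.13 (adjusted p = 0.995). How many of all genes had an unadjusted p under 0.05 was not counted. By p, E2F3 and E2F2 came next: E2F3 differed by 0.23 ± 0.14 and E2F2 by 0.53 ± 0.33. Intervals of this width do not show that the effects were alike.

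Wnt3a alone changed none of the members by the test. In WNT against E7, edgeR called 0 members, where 0.605% of all genes were called, with 0 at an unadjusted p under 0.05 and 0 by DESeq2. The members with the smallest p were E2F7, with 71.4 and 61.3 CPM in WNT against 58.0 and 48.2 CPM in E7 (log2 fold change 0.32 ± 0.15, adjusted p = 0.843), KIF20A (0.24 ± 0.11, adjusted p = 0.85) and E2F1 (0.29 ± 0.14, adjusted p = 0.943). Log2 fold changes were above 0 in 36 of the 45 members (median 0.097) and in 9282 of the 17355 genes tested (median 0.016). The range of the members was -0.23 to 0.36.

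A day after CPI-203, TYMS was the member called between cells that had and had not received it. In WNT_CPI_ACT against WNT_ACT, edgeR called 1 of the 45 members (2.22%), where 5.9% of all genes were called: TYMS. It had 100.1 and 89.7 CPM in WNT_CPI_ACT, against 49.1 and 42.98 CPM in WNT_ACT, which is 2.06-fold higher (log2 fold change 1.04 ± 0.14, adjusted p = 0.00308). Both libraries were above every other library of the study. The call held with each library left out (adjusted p up to 0.0268) and not in a fit of these 4 libraries alone (0.283), where no gene was called. TYMS overlaps ENOSF1 on the opposite strand, which had 16696 counts over all libraries against 31672 for TYMS, so their reads cannot be told apart without strand. With the replicate block 7 members were called (15.6%), against 15.1% of all genes: MCM10, GINS4, POLE, RRM1, TYMS and E2F7 higher and E2F8 lower. Cell identity markers moved with these groups. The summed level of 6 mesoderm and endoderm markers was 267.5 and 36.3 CPM in WNT_CPI_ACT, against 1547 and 264 CPM in WNT_ACT, with none called by the main test and 5 called lower with the block. Of the neural markers 2 were called higher, and their sum was 414 to 648 CPM in WNT_CPI_ACT against 342 to 448 CPM in WNT_ACT. Their part in the members' values, here and in the change between days, was not tested.

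The change of the CPI-203 effect between 48 h and 24 h, (WNT_CPI_ACT - WNT_ACT) - (WNT_CPI - WNT), was called for 4 members (8.89%), where 13.3% of all genes were called. E2F2 changed most, by 3.32 ± 0.32 (edgeR adjusted p = 0.00018). It had 9.55 and 11.7 CPM in WNT_CPI_ACT, against 6.69 and 10.2 CPM in WNT_ACT, groups that overlap. E2F8 changed by 2.19 ± 0.32 (adjusted p = 0.00158), and its 18.9 and 13.9 CPM in WNT_CPI_ACT were still below the 29.9 and 20.4 CPM in WNT_ACT (log2 fold change -0.61 ± 0.22, adjusted p = 0.142, and 0.0335 with the replicate block). RRM2 changed by -0.83 ± 0.20 (adjusted p = 0.0199), with 341 and 291 CPM in WNT_CPI_ACT against 314 and 243 CPM in WNT_ACT. MCM2 changed by 1.01 ± 0.28 (adjusted p = 0.0362), with 273.5 and 340.0 CPM in WNT_CPI_ACT against 221 and 286 CPM in WNT_ACT. The calls of E2F2 and E2F8 held with each library left out. That of RRM2 was lost without WNT replicate 1 or 2, WNT_CPI replicate 2, WNT_ACT replicate 1 or WNT_CPI_ACT replicate 2 (adjusted p of 0.0513 to 0.0789). That of MCM2 was lost without WNT replicate 2, either WNT_CPI replicate, WNT_ACT replicate 1, WNT_CPI_ACT replicate 2 or E7_CPI replicate 1 (0.0575 to 0.132). With the replicate block 13 members were called (28.9%), against 26.9% of all genes, 11 of them positive.

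**Figure D5:**
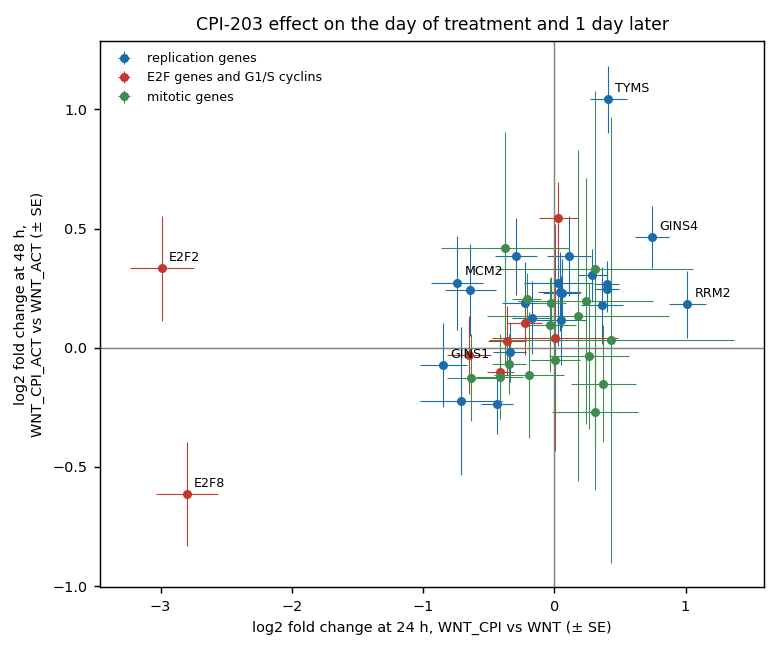
Log2 fold change of each member at 24 h, WNT_CPI against WNT (x axis, ± SE), and at 48 h, WNT_CPI_ACT against WNT_ACT (y axis, ± SE), coloured by class. E2F2 and E2F8 lie far left, at 0.33 and -0.61 on the y axis, and TYMS is highest on the y axis (1.04).

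Set against WNT_CPI itself, WNT_CPI_ACT had 13 members called (28.9%), 10 higher and 3 lower, where 26.9% of all genes were called. Agent and time change together here, so the removal of CPI-203, the addition of Activin A and the extra day cannot be told apart. E2F2 was higher by 3.38 ± 0.25 on the log2 scale (10.4-fold, edgeR adjusted p = 1.02e-05), E2F8 by 2.27 ± 0.23 (4.82-fold), TYMS by 0.77 ± 0.14, GINS2 by 0.70 ± 0.19, GINS1 by 0.69 ± 0.18, UBE2C by 0.68 ± 0.18, GINS3 by 0.54 ± 0.16 and the mitotic kinase AURKA by 0.53 ± 0.13. RRM2 fell by 0.86, GINS4 by 0.41 and PCNA by 0.35 on the same scale. RRM2 had 341 and 291 CPM in WNT_CPI_ACT, against 527 and 620.3 CPM in WNT_CPI. Calls of E2F2, E2F8, RRM2 and TYMS held with each library left out. Every other call was lost at least once. Those of GINS3 and GINS4 were lost in 4 of the 5 fits that left a library out, PCNA in 3 and E2F3 in all 5. Between 4 (without WNT_CPI replicate 1) and 10 members were called when a library was omitted, 6 without WNT_CPI_ACT replicate 2. This comparison and those before it share the WNT_CPI or WNT_CPI_ACT libraries.

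Activin A after Wnt3a was tested between groups of 1 time point. In WNT_ACT against WNT_E7, 48 h groups that differ in Activin A, edgeR called 0 members, where 0.882% of all genes were called, with 0 at an unadjusted p under 0.05 and 0 by DESeq2. The smallest p belonged to BUB1B (-0.31 ± 0.18, adjusted p = 0.678), MCM6 (0.21 ± 0.12, adjusted p = 0.714) and MCM3 (-0.20 ± 0.12, adjusted p = 0.763). The replicate block gave 0 calls as well. WNT_ACT was also set against WNT, where Activin A, the end of Wnt3a and the extra day change together and cannot be told apart. In WNT_ACT against WNT, edgeR called 0 members, where 1.68% of all genes were called, with 3 at an unadjusted p under 0.05 and 0 by DESeq2: MCM3 (log2 fold change -0.36 ± 0.12, adjusted p = 0.221), ORC1 (-0.42 ± 0.16, adjusted p = 0.291) and MCM10 (-0.39 ± 0.17, adjusted p = 0.351). Here too, all genes were not counted at that unadjusted threshold, so the 3 do not set the members apart. With the replicate block, MCM3 and ORC1, of the origin complex, were called lower, where 6.44% of all genes were called. MCM3 had 499 and 563 CPM in WNT_ACT, against 640 and 721 CPM in WNT. The log2 fold change was below 0 in 20 of the 21 replication members (median -0.18) and in 9075 of the 17355 genes tested (median -0.015). The members were measured in the same libraries and are not separate observations.

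Wnt3a before Activin A was tested in WNT_ACT against E7_ACT. EdgeR called 0 members, where 3.84% of all genes were called, with 6 at an unadjusted p under 0.05 and 1 by DESeq2 (TYMS, adjusted p = 0.0168). How many of all genes had an unadjusted p under 0.05 was not counted, so the 6 do not set the members apart. TYMS had 49.1 and 42.98 CPM in WNT_ACT, against 34.4 and 32.9 CPM in E7_ACT (log2 fold change 0.45 ± 0.14, adjusted p = 0.131), and BUB1, a spindle checkpoint kinase, had 485 and 282 CPM in WNT_ACT, against 225 and 164 CPM in E7_ACT (0.98 ± 0.33, adjusted p = 0.179). These 2 were called higher with the replicate block (0.0255 and 0.0209), where 8.69% of all genes were called. E2F8 came next (0.59 ± 0.22, adjusted p = 0.23). The summed mesoderm and endoderm markers differed between the replicates of these groups, with 264 to 1547 CPM in WNT_ACT, against 4.74 to 7.503 CPM in E7_ACT, and their part in the members' values was not tested.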

How the data were processed

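RNA was measured in 16 libraries of 8 groups, 2 each. The authors deposited whole-number read counts per gene, in a table for each replicate. The submitters' processing notes name featureCounts, DESeq2, Bowtie2, deepTools and MACS2 and the builds hg38, hg19, GRCh38 and GRCh37, with no role. Aligner, strand setting and build of the RNA counts are not given in the sources used here. The tables were joined by gene ID (27348 genes in both). Values of the E7_CPI replicate 1 column were assigned to genes by the row order of the other replicate's table, with 12 empty cells left over.

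Counts were tested with edgeR 4.0.16 in R 4.3.3 (quasi-likelihood F-test, TMM factors 0.948 to 1.049, filterByExpr) over all 16 libraries. Benjamini-Hochberg adjustment ran over all 17355 genes tested (17793 without E7_CPI replicate 1), with a threshold of 0.05. The SE is the log2 fold change divided by the square root of F. Alternatives were a replicate block, other scalings and filters, fits of only the groups compared, DESeq2 1.42.0 and each library left out. The block used the replicate numbers as given, also for E7_CPI replicate 1 where that library was kept. Replicate differences correlated at 0.457 to 0.898 over 13968 genes in the 21 pairs of groups without E7_CPI, and at -0.115 to -0.0353 in the 7 pairs with it, so the numbers pair the libraries of the 7 other groups. The fit was tested on simulated data. Members called were named with values in order of fold change, at most 8 a direction, or the 3 with the smallest p where fewer than 3 were called. The members, lists and tests were chosen with earlier results of these data known. The 14 ATAC libraries, deposited as peak positions, were not used here.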

Additional observations from a re-analysis of the deposited data

Results flagged for a closer look

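The CPI-203 effect differed between 48 h and 24 h, by a test of the difference itself, for 4 members. On the log2 scale, E2F2 changed by 3.32, E2F8 by 2.19, MCM2 by 1.01 and RRM2 by -0.83. The calls of MCM2 and RRM2 depend on single libraries, as given with their values above, and agent and time differ together between these days.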

How the results depend on the processing

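With the replicate block, members called numbered 23 in E7_CPI against E7, 22 in WNT_CPI against WNT, 7 in WNT_CPI_ACT against WNT_ACT, 13 for the change between days, and 2 each in WNT_ACT against WNT and against E7_ACT. In WNT_CPI_ACT against WNT_CPI they numbered 19. Calls over all genes were then 8816 in E7_CPI (main 5671), 8227 in WNT_CPI (5374), 22 for the 24 h interaction (2), 299 in WNT against E7 (105), 2619 in WNT_CPI_ACT against WNT_ACT (1024), 4661 for the change (2313), 7414 in WNT_CPI_ACT against WNT_CPI (4667), and 1117, 773 and 1509 in WNT_ACT against WNT (292), WNT_E7 (153) and E7_ACT (667). With the block and without E7_CPI replicate 1, members numbered 23, 27, 9, 16, 23 (WNT_CPI_ACT against WNT_CPI), 5 and 5, and all genes 9417 in WNT_CPI, 7, 414, 3590, 5923, 8608, 1648, 1130 and 2024 in the same order. Without that library alone, all genes numbered 648 in WNT_CPI_ACT against WNT_ACT, and 112, 22 and 379 in WNT_ACT against WNT, WNT_E7 and E7_ACT. In fits of only the groups compared, members fell to 5 in WNT_CPI, 0 in WNT_CPI_ACT against WNT_ACT, 2 for the change and 2 in WNT_CPI_ACT against WNT_CPI, and all genes to 3352 in WNT_CPI, 0 for the interaction, 6 in WNT, 0, 886, 1684, and 0 in each WNT_ACT comparison; fewer samples entered these fits. DESeq2 called 5 members in WNT_CPI_ACT against WNT_ACT and 1 in WNT_ACT against E7_ACT, and over all genes 37, 308, 1819, 899, 690 and 1126 for the interaction, WNT, WNT_CPI_ACT against WNT_ACT, and WNT_ACT against WNT, WNT_E7 and E7_ACT. Library totals gave 8 members for the change, and a stricter filter 3 in WNT_CPI_ACT against WNT_ACT. Counts of all genes under these settings are not given here, so these counts do not set the members apart. The cause was not tested. With a library left out, members called ranged from 7 to 10 in E7_CPI, 6 to 13 in WNT_CPI, 1 to 3 in WNT_CPI_ACT against WNT_ACT, 2 to 5 for the change and 4 to 10 in WNT_CPI_ACT against WNT_CPI. Over all genes they ranged from 3121 to 4094, 3544 to 4722, 0 to 2 (interaction), 16 to 76 (WNT), 308 to 767, 1415 to 1990 (change), 2897 to 4063, and 1 to 297, 0 to 237 and 83 to 557 in WNT_ACT against WNT, WNT_E7 and E7_ACT. Of single members' alternatives, 484 kept their side of the threshold, 116 no longer passed it and 0 changed sign. Library totals moved the median of all genes in E7_CPI to -0.142, against -0.052. Groups of 2 limit what can be detected. For mitotic genes, the replicate differences also widened the SEs in the fit without the block.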
